A study of Mus musculus with 14 samples.

Results

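Fatty acid oxidation and ketone synthesis were examined through a list of 33 genes of the mitochondrial and peroxisomal pathways, of which 32 were measured among 19938 genes in all. Each gene was read from its probe set with a single gene symbol, and from the one with the highest mean signal where there were several, which applied to Hadhb. Acsl1 was not analysed here. Values are log2 signals from Affymetrix expression arrays, on which a difference of 1 unit is a change of 2-fold.

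The arrays carried total RNA from 14 samples of C57BL/6 mice, 2 in each of 7 groups. The groups were liver tissue, gallbladder tissue and small intestine tissue, organoids grown from each of these 3 organs, and differentiated gallbladder organoids. Organoids are epithelial cultures, kept here in Matrigel in an AdDMEM/F12 medium with B27, N2, N-acetylcysteine, EGF, FGF10, HGF, 10 mM nicotinamide, and conditioned media holding R-spondin 1 and noggin, a Wnt potentiator and a BMP antagonist. Differentiated gallbladder organoids were kept for 2 weeks on medium with no nicotinamide, noggin or R-spondin 1. The tissues were extracted as such, with no step in the labels that selects one cell type. The labels do not say whether the 2 samples of a group came from separate mice or cultures, so p-values measure only the spread between these arrays, which may be technical.

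Fatty acids are burned by stepwise removal of acetyl units. A synthetase first activates the fatty acid to an acyl-CoA, the carnitine shuttle carries the acyl group into mitochondria, and an acyl-CoA dehydrogenase, a hydratase, a hydroxyacyl-CoA dehydrogenase and a thiolase then shorten it, while electron transfer flavoprotein passes the electrons to the respiratory chain. Peroxisomes run a parallel pathway for very long, branched and bile acid precursor chains. Hepatocytes carry both pathways at high capacity and make ketone bodies from the acetyl-CoA during fasting, under the control of the nuclear receptor PPARα, and enterocytes of the small intestine oxidise fatty acids as well.

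Median log2 signals over all genes lay between 7.12 and 7.44 in the 14 arrays. The tissue labels were set against cell type markers. The 10 hepatocyte markers had a median log2 signal of 14.12 and 14.02 in the liver tissue arrays but 6.33 and 6.10 in the liver organoid arrays. The cholangiocyte keratin Krt19 stood at 13.76 and 13.77 in liver organoids against 7.29 and 7.41 in liver tissue. Of 8 cholangiocyte markers 7 were higher in liver organoids (limma adjusted p below 0.05). The other, Aqp1, was lower, at 10.41 and 9.75 against 11.07 and 11.15. The liver organoids thus carried most of these biliary markers, and of the hepatocyte markers mainly transthyretin (Ttr, 12.67 and 12.56). Gallbladder tissue also carried hepatocyte markers, with medians of 12.82 and 14.07, and albumin (Alb) read 14.30 in both arrays as compared with 14.34 and 14.35 in liver tissue. Markers of pancreatic acinar cells had a median of 7.09 in small intestine tissue replicate 1 and of 13.27 in replicate 2. The contractile gene Acta2 read 12.56 to 14.26 in the gallbladder and small intestine tissues and 7.20 to 7.71 in organoids. In such bulk samples fewer cells of a type and less RNA per cell cannot be told apart.

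The replicates differed most in 1 group. In gallbladder tissue all 32 genes were higher in replicate 2 than in replicate 1, by a median of 0.88, while 47.1% of all genes were higher there and the median gap over all genes was -0.02. The widest gap was that of the peroxisomal thiolase Acaa1b, at 7.02 and 10.28, and 9 of the 10 hepatocyte markers were also higher in replicate 2, by a median of 1.16 over the 10. All 5 adipocyte markers were higher there too, by a median of 1.20 (Adipoq at 8.78 and 9.99), as were 3 of 3 endothelial markers, while all 6 smooth muscle and all 8 cholangiocyte markers were lower, with median gaps of -0.45 and -0.42. In the other 6 groups the standard deviation between replicates, taken over the oxidation genes, lay between 0.051 and 0.286, against 0.93 in gallbladder tissue. The part of RNA from these cell types in the gallbladder tissue values was not tested. Because 1 variance per gene was fitted over all 7 groups, the spread of gallbladder tissue also enters the error of every comparison below.

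**Figure D1:**
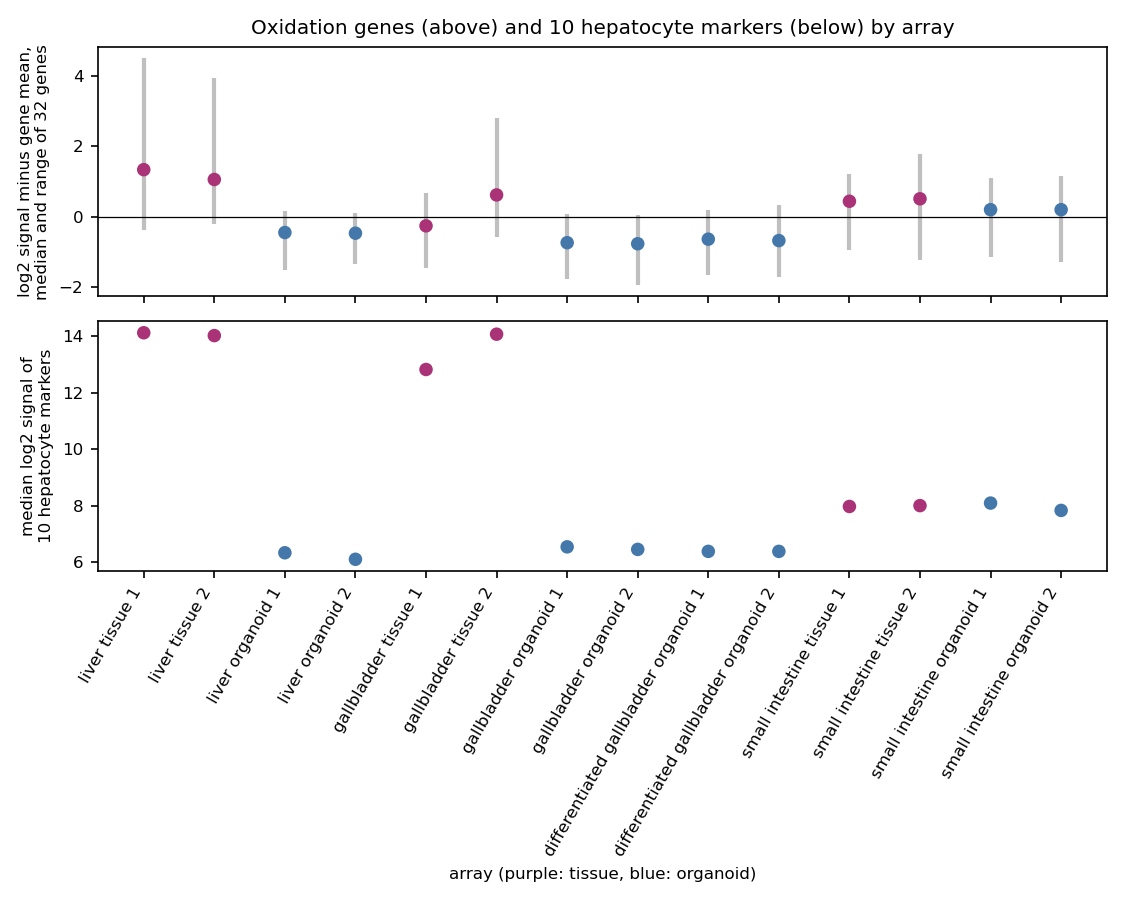
Upper panel, each array's log2 signals of the 32 oxidation genes after subtracting each gene's mean over 14 arrays (point, median; line, lowest to highest gene); lower panel, median log2 signal of 10 hepatocyte markers. Medians of the oxidation genes were 1.34 and 1.06 in liver tissue, -0.26 and 0.62 in gallbladder tissue, and -0.77 to -0.45 in the liver and gallbladder organoid arrays, while the hepatocyte markers were high in liver tissue and in both gallbladder tissue arrays.

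Liver tissue had the highest group mean for 26 of the 32 genes, whereas 20.5% of all genes were highest there. Small intestine tissue was highest for Acsl5, Crat, Hadha, Hadh and Acaa1a, and gallbladder tissue for Cpt1a. The gallbladder organoids were lowest for 18 of the 32, as were 5.95% of all genes. The differentiated gallbladder organoids were lowest for 5 genes, the liver organoids for Crot, Hadh, Hsd17b4 and Bdh1, the small intestine organoids for 4, and gallbladder tissue for Acsl5. The distance between the highest and the lowest group mean ran from 1.18 log2 units for Cpt2 to 5.44 for Acsm1.

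**Figure D2:**
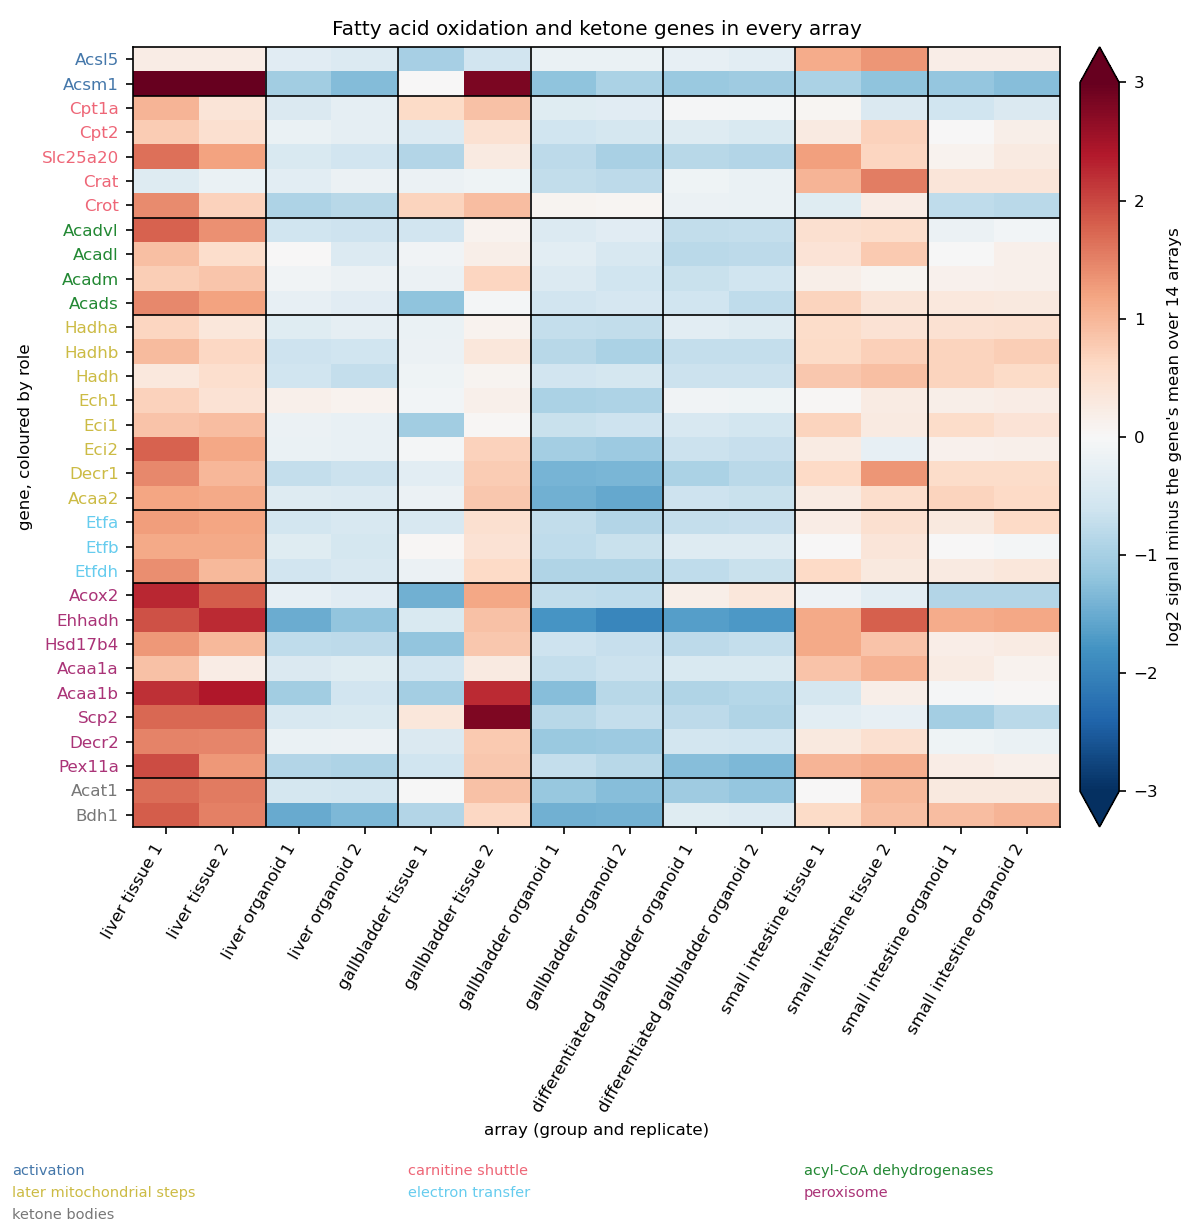
Log2 signal of each of the 32 genes in each of the 14 arrays, minus the gene's own mean over the arrays (colour; the scale ends at 3 units on either side), with gene names coloured by role. Liver tissue was the highest group for 26 genes, gallbladder tissue replicate 2 was above replicate 1 for all 32, and the small intestine organoids kept values near those of small intestine tissue.

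The sequences around annotated starts of these genes were compared, because the width of that range differed so much between genes. RefSeq promoter windows of 300 bases ran from 250 before to 50 after an annotated start in build GRCm38.p6. They were held for 27 of the 32 genes, in 29 windows. The start used was not always the outer end of the gene. The windows of Cpt1a, Acsl5, Scp2, Eci2 and Acaa1a, and that of Bdh1 with 17 CG, lay wholly within the gene's listed bounds. For Acaa1a the gene begins at base 119341028 and the window at 119341044. Acsm1, Decr2 and Acox2 also had windows set at a start inside the gene. Member windows held a median of 15 CG dinucleotides against 7 over all 32851 windows. Only Acsm1, Acaa1b and Acox2 had 4 or fewer CG dinucleotides in each of their windows, as had 38% of all windows, and these genes had ranges of 5.44, 3.35 and 2.92 log2 units. Across the 27 genes the Spearman correlation between CG count and range was -0.54, given as a description because the genes share the 14 arrays. Ehhadh, with 14 CG dinucleotides and a range of 3.93, Bdh1, with 7 and 17 in its windows and 3.09, and Pex11a, with 13 and 2.94, departed from that order. The 6 windows below show the low-CG pair Acsm1 and Acaa1b, the wide-ranging Ehhadh, Acaa1a as the neighbour and paralogue of Acaa1b 183934 bases away on chromosome 9, the window with the most CG dinucleotides (Acadl, 34), and that of Hadhb, which overlaps the window of the opposite-strand gene Hadha by 228 bases. Each is printed 5′ to 3′ on the gene's own strand, with CG dinucleotides in capitals.
Acsm1 (chr7:119617562-119617861, forward strand, 2 CG): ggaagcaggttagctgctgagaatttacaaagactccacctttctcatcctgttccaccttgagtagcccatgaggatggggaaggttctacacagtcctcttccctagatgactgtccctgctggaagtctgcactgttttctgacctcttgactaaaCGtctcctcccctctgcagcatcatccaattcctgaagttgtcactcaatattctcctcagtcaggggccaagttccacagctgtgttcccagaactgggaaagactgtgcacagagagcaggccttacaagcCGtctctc
Acaa1b (chr9:119157044-119157343, reverse strand, 4 CG): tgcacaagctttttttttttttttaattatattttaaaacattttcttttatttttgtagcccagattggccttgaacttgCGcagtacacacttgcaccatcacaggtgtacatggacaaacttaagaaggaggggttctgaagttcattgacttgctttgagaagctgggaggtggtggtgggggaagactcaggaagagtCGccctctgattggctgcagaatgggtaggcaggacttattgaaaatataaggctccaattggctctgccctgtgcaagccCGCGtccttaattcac
Ehhadh (chr16:21787785-21788084, reverse strand, 14 CG): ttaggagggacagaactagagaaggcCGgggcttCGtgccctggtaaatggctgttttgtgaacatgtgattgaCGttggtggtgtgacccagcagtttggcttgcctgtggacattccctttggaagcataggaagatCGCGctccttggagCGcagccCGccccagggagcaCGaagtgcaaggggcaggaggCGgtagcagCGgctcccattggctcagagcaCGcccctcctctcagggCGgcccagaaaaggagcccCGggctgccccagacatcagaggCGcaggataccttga
Acaa1a (chr9:119341044-119341343, forward strand, 10 CG): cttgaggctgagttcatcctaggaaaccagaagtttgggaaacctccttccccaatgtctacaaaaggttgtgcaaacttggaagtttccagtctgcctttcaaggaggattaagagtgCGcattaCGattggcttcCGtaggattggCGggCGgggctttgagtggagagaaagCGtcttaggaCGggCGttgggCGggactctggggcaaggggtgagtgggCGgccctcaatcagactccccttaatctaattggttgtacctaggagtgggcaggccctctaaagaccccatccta
Acadl (chr1:66863260-66863559, reverse strand, 34 CG): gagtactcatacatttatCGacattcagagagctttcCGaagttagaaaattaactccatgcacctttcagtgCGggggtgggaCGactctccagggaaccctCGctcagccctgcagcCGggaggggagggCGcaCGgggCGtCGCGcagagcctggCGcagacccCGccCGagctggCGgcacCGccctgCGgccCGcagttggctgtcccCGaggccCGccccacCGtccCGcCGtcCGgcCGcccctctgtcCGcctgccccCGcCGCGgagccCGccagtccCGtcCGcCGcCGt
Hadhb (chr5:30155003-30155302, forward strand, 24 CG): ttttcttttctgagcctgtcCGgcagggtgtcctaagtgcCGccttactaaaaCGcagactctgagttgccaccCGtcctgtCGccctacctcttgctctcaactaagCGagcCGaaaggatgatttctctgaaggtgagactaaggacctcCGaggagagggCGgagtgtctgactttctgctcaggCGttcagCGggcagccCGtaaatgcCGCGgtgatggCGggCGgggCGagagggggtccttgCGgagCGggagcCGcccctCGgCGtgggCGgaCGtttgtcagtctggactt

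The half-site AGGTCA, one arm of the element that PPARα and its partner RXR bind, was searched on both strands. It lay in the windows of Acadm, Scp2, Acsm1, Acadvl and Cpt1a, 18.5% of the 27 genes, and in 16.3% of all windows. A direct repeat of this half-site with any 1 base between the copies, also searched on both strands, was in none of the 27 and in 0.0396% of all windows. An exact match this rare was unlikely to occur in 27 genes, so no conclusion is drawn from its absence. Inexact copies and sites outside the windows were not searched. Hadha and Hadhb, which encode the subunits of the mitochondrial trifunctional protein, lie head to head 272 bases apart on chromosome 5. Over the groups Hadha ranged by 1.22 log2 units and Hadhb by 1.69, and a further probe set of Hadhb read 9.64 to 11.60 over the arrays.

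**Figure D3:**
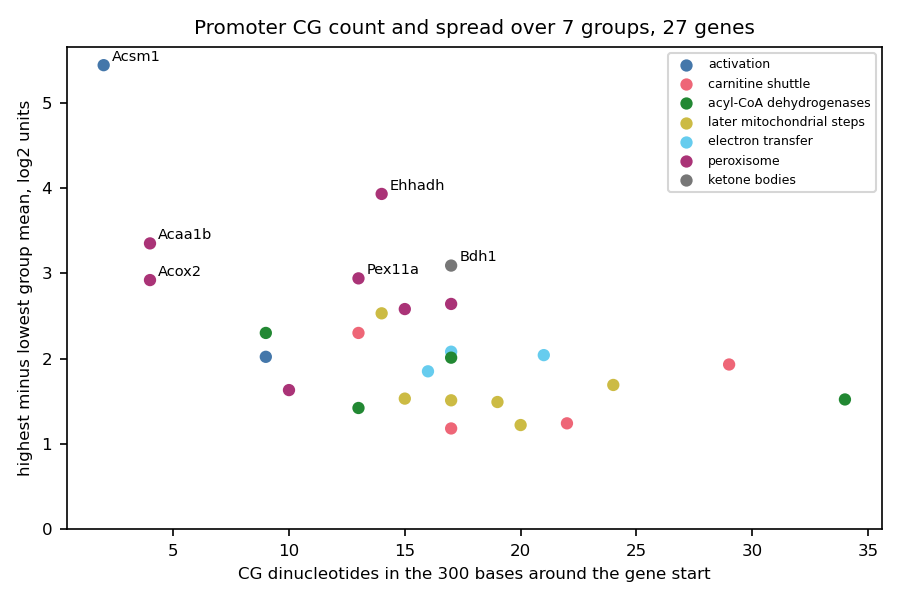
CG dinucleotides in the 300-base promoter window (horizontal; the window with more of them where a gene has several) against the highest minus the lowest of the 7 group means in log2 units (vertical) for 27 genes, coloured by role. Acsm1 lies at 2 CG and 5.44 units and Acadl at 34 CG and 1.52 units.

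Liver organoids were compared with liver tissue, to see how the cultured cells differ from their organ. Of the 32 genes 31 fell and none rose, with a median difference of -1.67 log2 units against 0.00 over all genes. Calls are from limma, at an adjusted p below 0.05 over all 19938 genes, and by this rule 18.2% of all genes were lower in the organoids and 26.7% higher. The losses reached every role: both activation genes, 4 of 5 genes of the carnitine shuttle, all 4 acyl-CoA dehydrogenases, all 8 genes of the later mitochondrial steps, all 3 electron transfer genes, all 8 peroxisomal genes and both ketone body genes. The one gene not called was Crat, a carnitine acetyltransferase that buffers acetyl-CoA, at 10.36 and 10.54 in tissue and 10.43 and 10.56 in organoids, a difference of 0.04.

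The largest fall was in Acsm1, a mitochondrial synthetase that activates medium-chain acids. Its log2 signals were 11.65 and 11.09 in liver tissue and 6.11 and 5.85 in liver organoids, and it fell by 5.40 ± 0.66 (SE; limma adjusted p = 7.8e-05). The probe read 5.85 to 6.21 in the organoid arrays of all kinds and in small intestine tissue, below the array medians, and no detection calls were used here, so how far these signals lie above background is not known. Differences of Acsm1 against them, and of other genes read this low, are differences of signal whose exact size is not interpreted. Ehhadh, the bifunctional hydratase and dehydrogenase of peroxisomes and a classical PPARα target, read 12.20 and 12.52 in tissue and 8.80 and 9.10 in organoids and fell by 3.41 ± 0.36 (adjusted p = 2.8e-05). Bdh1, which converts acetoacetate to the ketone body 3-hydroxybutyrate, read 12.08 and 11.76 in tissue and 8.75 and 8.91 in organoids, a fall by 3.09 ± 0.37 (adjusted p = 6.5e-05). In none of these genes did the arrays of the 2 groups overlap.

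Other peroxisomal genes fell strongly too. Acaa1b went from 10.22 and 10.44 to 6.98 and 7.46 and fell by 3.11 ± 0.77 (adjusted p = 0.00725). Acaa1a and Acaa1b are close paralogues, and how far their probes share signal was not tested. Pex11a, a factor in peroxisome division, fell by 2.54 ± 0.36 (adjusted p = 0.000214), and Scp2, a sterol carrier and thiolase, by 2.19 ± 0.56 (adjusted p = 0.00895). Acox2, the oxidase of branched chains and bile acid precursors, fell by 2.34 ± 0.60 (adjusted p = 0.00911), a call that was lost without liver tissue replicate 1 (0.0543) or liver organoid replicate 2 (0.0502). The other peroxisomal genes fell by 1.91 (Hsd17b4), 1.67 (Decr2) and 0.93 (Acaa1a).

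Of the 4 acyl-CoA dehydrogenases the very long-chain enzyme Acadvl fell most, at 11.59 and 11.19 in tissue and 9.23 and 9.19 in organoids, a fall by 2.18 ± 0.19 (adjusted p = 9.07e-06). The long-chain and medium-chain enzymes Acadl and Acadm fell by 0.91 and 0.92, and the short-chain enzyme Acads by 1.62. In the carnitine shuttle the carrier Slc25a20 and the peroxisomal octanoyltransferase Crot fell by 1.95 and 1.93, and the carnitine palmitoyltransferases Cpt1a and Cpt2 by 1.06 and 0.84. Later steps fell by 0.44 for the isomerase Ech1 up to 1.89 for Decr1, a reductase for unsaturated chains, with Eci2 at 1.67, Acaa2 at 1.56, Hadhb at 1.40, Eci1 at 1.09, Hadh at 1.07 and Hadha at 0.82 between them. The electron transfer flavoprotein subunits Etfa fell by 1.75, Etfb fell by 1.58 and their dehydrogenase Etfdh fell by 1.69. Acat1, the thiolase that makes acetoacetyl-CoA, fell by 2.16, and the activation gene Acsl5 by 0.60. Acaa1a, Cpt2 and Ech1 lost their calls without liver tissue replicate 1 (adjusted p = 0.11, 0.0947 and 0.0876) or liver organoid replicate 2 (0.0517, 0.0805 and 0.0729), Acaa1a and Cpt2 also without liver organoid replicate 1 (0.0648 and 0.0545). The count of called genes stayed between 27 and 31 when each of the 14 arrays was left out. Median hepatocyte marker signal fell beside these genes, with 10 of 10 markers called lower and a median of -7.64, and fewer hepatocytes and less RNA per cell cannot be told apart.

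Small intestine organoids were compared with small intestine tissue in the same way. No gene rose and 5 of 32 fell, with a median of -0.28 against -0.02 over all genes, where 15.6% of all genes were called lower and 20.2% higher. The members' share called lower was thus near that of all genes. Acsl5, the acyl-CoA synthetase of the enterocyte, read 13.33 and 13.55 in tissue and 12.42 and 12.41 in organoids and fell by 1.03 ± 0.14 (limma adjusted p = 0.000243). Crat read 11.77 and 12.29 in tissue and 11.10 in both organoid arrays and fell by 0.93 ± 0.15 (adjusted p = 0.000816). These calls held without any single array. Acaa1a fell by 0.78 ± 0.26 (adjusted p = 0.0389), Crot by 0.72 ± 0.23 (adjusted p = 0.0341) and Acadvl by 0.63 ± 0.19 (adjusted p = 0.0281). Each of these 3 lost its call without either small intestine organoid array and without small intestine tissue replicate 2, where the p-values were 0.146, 0.226 and 0.0928 in the same order. Acaa1a lost it without 10 of the 14 arrays taken singly, Crot without 9, and Acadvl also without small intestine tissue replicate 1 (0.069). The count of 5 fell to 2 without any of those 3 arrays, to 3 without either gallbladder organoid or differentiated gallbladder organoid array, and rose to 12 without either gallbladder tissue array. Neither Ehhadh nor Bdh1 was called here. Ehhadh read 11.42 and 12.07 in tissue and 11.39 and 11.44 in organoids, and Bdh1 10.84 and 11.15 against 11.18 and 11.28. Of 7 enterocyte markers 4 were lower in the organoids, with a median of -1.24, as were all 6 smooth muscle markers (-4.58), 4 of 5 immune markers (-2.80) and 3 of 3 endothelial markers (-2.21). Of the 10 hepatocyte markers 2 were lower and 1 higher, and the acinar marker Cpa1 read 6.79 and 13.52 in tissue and 6.58 and 6.73 in organoids. Their part in the result was not tested.

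**Figure D4:**
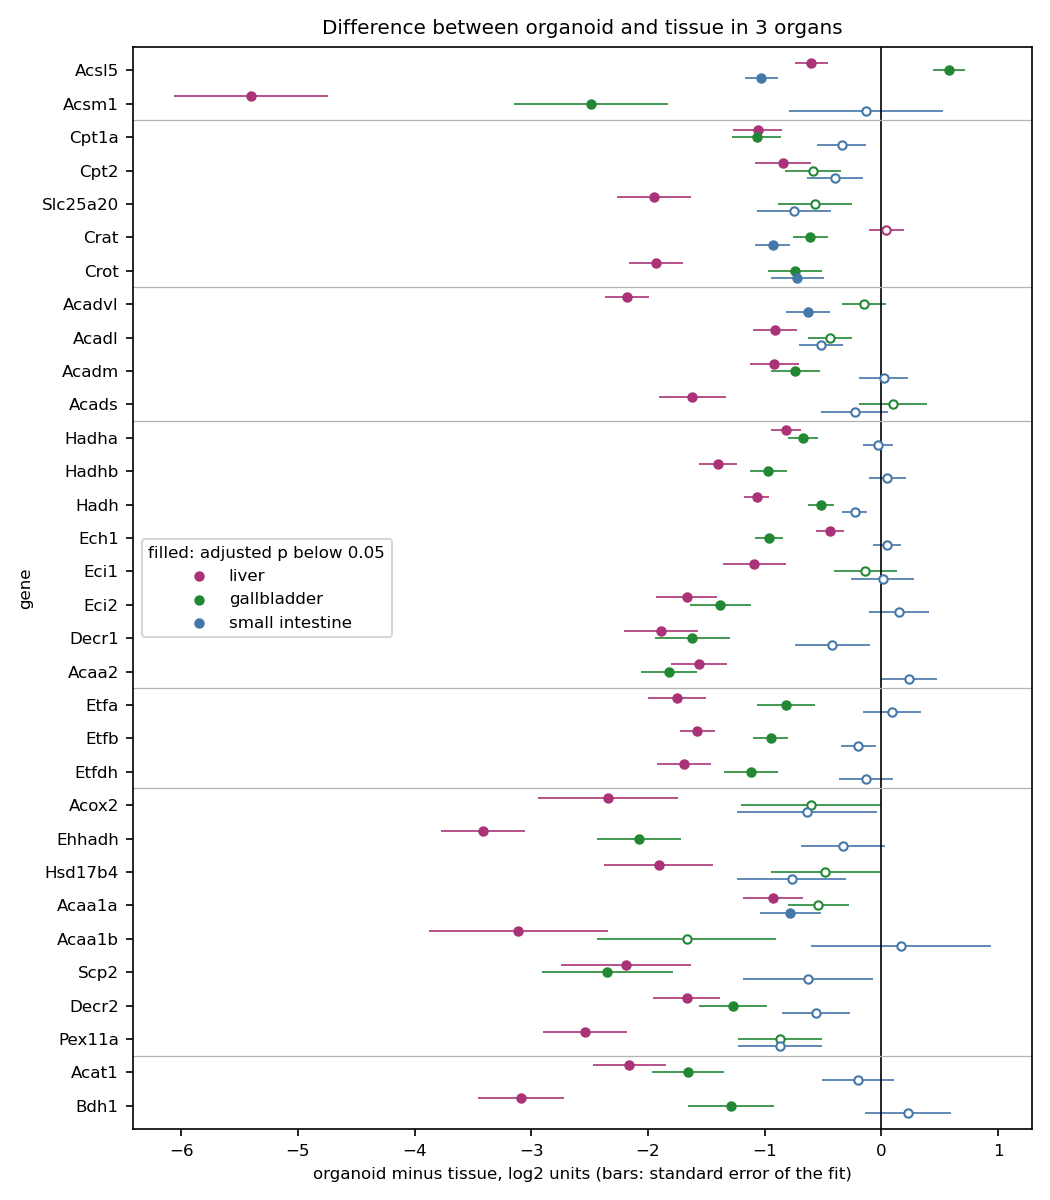
Organoid minus tissue in log2 units for each of the 32 genes in liver, gallbladder and small intestine (points; bars, standard error of the limma fit; filled, adjusted p below 0.05), with grey lines between roles. Medians were -1.67 in liver, -0.85 in gallbladder and -0.28 in small intestine. In the same order 31, 21 and 5 genes were called, beside 44.9%, 47.9% and 35.8% of all genes, in either direction.

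Whether the organoid minus tissue difference was unequal in liver and small intestine was tested directly, as the interaction term of the same model. It was negative and called for 21 of the 32 genes, positive and called for 1, with a median of -1.39 against 0.01 over all genes; 16.2% of all genes were called lower and 19% higher. The comparison shares its liver arrays with the first one. Bdh1 had a term of -3.32 ± 0.52 (limma adjusted p = 0.000692) and Ehhadh one of -3.08 ± 0.51 (adjusted p = 0.000935). The term of Acsm1, -5.27 ± 0.93 (adjusted p = 0.00146), largely restates its fall in liver, because its signals were already as low in small intestine tissue (6.19 and 5.93) as in the organoids (6.00 and 5.86). Acaa1b had -3.28 ± 1.09 (adjusted p = 0.0394), a call lost without any one of 11 arrays, with p up to 0.115. By role, both ketone body genes, all 3 electron transfer genes and all 8 later mitochondrial steps had a negative called term, among them Acat1 at -1.96 ± 0.44 (adjusted p = 0.00568), Etfa at -1.83 ± 0.35 (0.0024), Eci2 at -1.81 ± 0.36 (0.00308) and Acaa2 at -1.80 ± 0.34 (0.00235), while Etfdh and Etfb had -1.57 and -1.37. Of the later steps Eci1, Ech1 and Decr1 lost their calls without 11, 10 and 6 of the arrays taken singly. Crat was the positive one, at 0.97 ± 0.21 (adjusted p = 0.00505). Without liver organoid replicate 1 the count of 22 called terms fell to 14. In the same term all 10 hepatocyte markers were called negative, with a median of -7.11, and 6 of 8 cholangiocyte markers positive (4.18), as were all 6 smooth muscle markers (3.70), and their part was not tested.

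Gallbladder organoids were compared with gallbladder tissue. Of the 32 genes 20 fell and 1 rose, with a median of -0.85 against 0.17 over all genes; 15.2% of all genes were called lower and 32.7% higher. Without gallbladder tissue replicate 1 the median was -1.22, with 30 genes lower and 1 higher, and without replicate 2 it was -0.53, with 18 lower and 4 higher. The gene that rose was Acsl5, from 11.21 and 11.64 in tissue to 12.01 in both organoid arrays, by 0.58 ± 0.14 (limma adjusted p = 0.00589). Electron transfer fell in all 3 genes (Etfdh by 1.12, Etfb by 0.95 and Etfa by 0.82, the last lost without either organoid array or tissue replicate 2, at p up to 0.104) and the ketone body genes in both. Acat1 read 11.01 and 11.90 in tissue and 9.87 and 9.73 in organoids and fell by 1.66 ± 0.31 (adjusted p = 0.0017). Acaa2, the mitochondrial thiolase, read 12.38 and 13.36 in tissue and 11.10 and 11.01 in organoids and fell by 1.82 ± 0.24 (adjusted p = 0.000219). Of the later mitochondrial steps 7 of 8 fell, with Decr1 by 1.62 ± 0.32 (adjusted p = 0.00239) and Eci2 by 1.38 ± 0.26 (adjusted p = 0.00166). The isomerase Ech1 read 11.75 and 11.98 in tissue and 10.89 and 10.92 in organoids and fell by 0.96.

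The widest falls in the gallbladder belonged to genes whose tissue arrays disagreed. Acsm1 read 7.16 and 9.97 in tissue and 5.94 and 6.21 in organoids and fell by 2.49 ± 0.66 (adjusted p = 0.011), with 0.0612 without gallbladder organoid replicate 1. Scp2 read 10.61 and 13.08 in tissue and 9.44 and 9.55 in organoids and fell by 2.35 ± 0.56 (adjusted p = 0.00671). Ehhadh fell by 2.08 ± 0.36 (adjusted p = 0.00102) from 9.84 and 11.17. Bdh1 fell by 1.29 ± 0.37 (adjusted p = 0.0152), a call lost without gallbladder organoid replicate 1 (0.0679) or 2 (0.0623). Of the 4 acyl-CoA dehydrogenases only Acadm was called. It fell by 0.74, with an adjusted p of 0.0922 without gallbladder organoid replicate 2, while Acadvl differed by -0.14, Acadl by -0.44 and Acads by 0.10. Markers of several cell types moved with these genes: all 10 hepatocyte markers were called lower, with a median of -6.99, as were 6 of 6 smooth muscle (-6.02), 4 of 5 adipocyte (-2.31) and 3 of 3 endothelial markers (-2.47), and their part in the result was not tested. In a fit of the 4 arrays alone 14 genes were called, against 21, and 36.5% of all genes, against 47.9%.

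The difference between organoid and tissue was then tested between liver and gallbladder, where a negative term means a more negative difference in liver. The interaction term was negative and called for 10 genes and positive and called for 2, with a median of -0.56 against -0.14 over all genes. Of all genes 22.7% were called lower and 17.1% higher, and their lower quartile was also -0.56. The members' share called negative was thus not far above that of all genes. Acadvl had -2.03 ± 0.27 (limma adjusted p = 0.000385), Acads -1.72 ± 0.41 (adjusted p = 0.00851) and Acsl5 -1.19 ± 0.19 (adjusted p = 0.00118), and these calls held without any single array. The other calls were less firm. Acsm1, low in the organoids of both organs, had -2.91 ± 0.93 (adjusted p = 0.0313) and Pex11a -1.67 ± 0.51 (adjusted p = 0.0258), each lost without liver tissue replicate 1, either gallbladder organoid array or either liver organoid array. Bdh1 had -1.79 ± 0.52 (adjusted p = 0.0204), lost without liver tissue replicate 1, liver organoid replicate 1 or either gallbladder organoid array. Slc25a20 had -1.38 ± 0.45 (adjusted p = 0.0352) and lost its call without any one of 10 arrays. Crot had -1.19 ± 0.33 (adjusted p = 0.0162), with 0.0505 without liver organoid replicate 1. The positive terms were Crat at 0.65 and Ech1 at 0.53, lost without 11 and 6 of the arrays taken singly. The count of 12 called terms was 4 without gallbladder organoid replicate 2 or liver organoid replicate 1, 5 without gallbladder organoid replicate 1 or liver organoid replicate 2, 6 without liver tissue replicate 1 and 23 without gallbladder tissue replicate 2. With each array centred on its median the 2 positive calls were lost and 13 negative ones made.

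Among the tissues, liver was above gallbladder for 25 of the 32 genes and below for none, with a median of 1.00 against 0.09 over all genes; 27.4% of all genes were called higher in liver and 20.7% lower. Without gallbladder tissue replicate 1 the median fell to 0.56, with 19 genes higher and 1 lower, and without replicate 2 it was 1.45, with 29 higher. The largest limma differences were in Acsm1 at 2.81 ± 0.66 (adjusted p = 0.00594), Acox2 at 2.18 ± 0.60 (adjusted p = 0.0135) and Acads at 1.97 ± 0.29 (adjusted p = 0.000414). Ehhadh differed by 1.86 ± 0.36 (adjusted p = 0.00203), Acadvl by 1.80 ± 0.19 (adjusted p = 5.82e-05) and Bdh1 by 1.79 ± 0.37 (adjusted p = 0.00283). Slc25a20 differed by 1.73 ± 0.32 (adjusted p = 0.00165) and Pex11a by 1.54 ± 0.36 (adjusted p = 0.00596). Acads, which takes short chains, read 12.26 and 12.01 in liver and 9.59 and 10.75 in gallbladder tissue. Acox2 lost its call without liver tissue replicate 1 (0.0698). Without gallbladder tissue replicates 1 and 2 in turn the difference was 1.40 and 4.21 for Acsm1 and 0.88 and 3.49 for Acox2. In a fit of the 4 arrays alone 4 of the 32 genes were called, where 19.2% of all genes were called. Of the 10 hepatocyte markers 2 were called higher in liver in the fit of all arrays, with a median of 0.57. Alb read 14.34 and 14.35 in liver and 14.30 in both gallbladder arrays, and Hpd 13.81 in both liver arrays against 11.16 and 13.26. How far signals this high compress the difference was not tested. Lower in liver were 7 of 8 cholangiocyte (-3.17), 6 of 6 smooth muscle (-4.97) and 4 of 5 adipocyte markers (-1.51). Of 5 immune markers 4 were higher (1.06), and the part of these cell types was not tested.

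Liver was above small intestine tissue for 16 genes and below for 3, with a median of 0.70 against 0.04 over all genes; 18.7% of all genes were called higher and 18.8% lower. Crat was lower in liver, at 10.36 and 10.54 against 11.77 and 12.29, with a difference of -1.58 ± 0.15 (limma adjusted p = 1.88e-05). Acsl5 was also lower there, at 12.43 and 12.45 against 13.33 and 13.55, as was Hadh, the short-chain hydroxyacyl-CoA dehydrogenase, with a difference of -0.44. Hadh lost its call without liver tissue replicate 1 (0.0565). Acsm1 was higher in liver by 5.32 ± 0.66 (adjusted p = 0.000113), Eci2 by 1.46 ± 0.26 (adjusted p = 0.00118) and Crot by 1.13 ± 0.23 (adjusted p = 0.00296), in calls that held without any single array. Acaa1b at 2.47 ± 0.77 (adjusted p = 0.0284), Acox2 at 2.27 ± 0.60 (0.0128), Scp2 at 2.01 ± 0.56 (0.0174) and Acat1 at 1.12 ± 0.31 (0.0159) each lost their call without liver tissue replicate 1, at 0.0796, 0.0712, 0.0654 and 0.0719. Acaa1b, Scp2 and Acat1 also lost it without small intestine tissue replicate 1 (0.127, 0.0623 and 0.114), Acox2 and Scp2 without small intestine tissue replicate 2 (0.0519 and 0.0537), and Acaa1b and Scp2 without liver tissue replicate 2 (0.103 and 0.0616). Of the 10 hepatocyte markers 9 were higher in liver, with a median of 5.74, while 6 of 7 enterocyte markers (-6.43) and 6 of 6 smooth muscle markers (-3.70) were lower, and their part was not tested. The count of 19 called genes fell to 7 without liver tissue replicate 1 and to 11 without small intestine tissue replicate 1.

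Small intestine tissue was above gallbladder tissue for 12 genes and below for 4, with a median of 0.50 against 0.04 over all genes; 24.3% of all genes were called higher and 20.7% lower. Acsl5 was higher by 2.02 ± 0.14 (limma adjusted p = 2.15e-06), Crat by 1.44 ± 0.15 (adjusted p = 3.99e-05), Acads by 1.17 ± 0.29 (adjusted p = 0.00854) and Acaa1a by 1.10 ± 0.26 (adjusted p = 0.00634). Ehhadh and Slc25a20, each higher by 1.24, each lost their call without 2 of the arrays. For Ehhadh these were small intestine tissue replicate 2 (0.111) and gallbladder tissue replicate 1 (0.0943), and for Slc25a20 small intestine tissue replicate 1 (0.0721) and gallbladder tissue replicate 1 (0.0546). Gallbladder tissue had more of Acsm1, by -2.51 ± 0.66 (adjusted p = 0.0112), Scp2, by -1.86 ± 0.56 (adjusted p = 0.0219, and 0.0719 and 0.0639 without small intestine tissue replicates 1 and 2), Cpt1a at -0.90 and Crot at -0.88, the last with 0.0803 without small intestine tissue replicate 1 and 0.0549 without gallbladder tissue replicate 2. Of the 10 hepatocyte markers 9 were lower in small intestine tissue, with a median of -5.21. All 7 enterocyte markers were higher there (6.92) and all 6 smooth muscle markers lower (-1.57). The acinar marker Cpa1 read 6.79 and 13.52 in small intestine tissue. The part of these cell types was not tested. Without gallbladder tissue replicate 1 the split was 7 higher and 10 lower, and without replicate 2 it was 23 and 3, where 26 genes were called against 16.

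The organoids of the 3 organs were grown in 1 medium and could be compared as epithelium. Small intestine organoids were above gallbladder organoids for 21 of the 32 genes and below for 1, with a median of 1.01 against -0.11 over all genes; 15.4% of all genes were called higher and 20.2% lower. All 8 later mitochondrial steps, all 3 electron transfer genes and both ketone body genes were higher. Ehhadh read 11.39 and 11.44 in small intestine organoids and 8.51 and 8.34 in gallbladder organoids, a difference of 2.99 ± 0.36 (limma adjusted p = 0.000118). Bdh1 read 11.18 and 11.28 against 8.81 and 8.85, a difference of 2.40 ± 0.37 (adjusted p = 0.000609). Acaa2 differed by 2.13 ± 0.24 (adjusted p = 8.68e-05), Decr1 by 1.93 ± 0.32 (adjusted p = 0.00106), Hadhb by 1.59 ± 0.16 (adjusted p = 4.08e-05), Acat1 by 1.51 ± 0.31 (adjusted p = 0.00379) and Etfa by 1.26 ± 0.25 (adjusted p = 0.0031). Etfdh and Eci2 differed by 1.21 each, Hadha by 1.19, Hadh by 1.18, Ech1 and Eci1 by 1.12 and Etfb by 0.69. Eci1 lost its call without gallbladder organoid replicate 1 (0.0524) or small intestine organoid replicate 1 (0.0596). Crot was the gene below, at 10.95 and 10.90 against 11.80 and 11.77, by -0.86 ± 0.23 (adjusted p = 0.0154), a call lost without any of the 4 arrays compared, with p up to 0.0793. The count of 22 was 14 without gallbladder organoid replicate 1 or small intestine organoid replicate 1. The enterocyte marker Sis, a brush border disaccharidase, read 13.44 and 13.38 in small intestine organoids and 5.08 and 5.17 in gallbladder organoids.

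Small intestine organoids were above liver organoids for 12 genes and below for none, with a median of 0.60 against -0.05 over all genes; 12.2% of all genes were called higher and 14.2% lower. Ehhadh differed by 2.47 ± 0.36 (limma adjusted p = 0.000496), Bdh1 by 2.40 ± 0.37 (adjusted p = 0.000697), Hadhb by 1.30 ± 0.16 (adjusted p = 0.000174) and Hadh by 1.28 ± 0.11 (adjusted p = 1.08e-05), and those calls held without any single array. Decr1 differed by 1.21, Pex11a by 1.10, Acaa2 by 1.03 and Etfa by 0.96, each lost without 3 or more of the arrays (p up to 0.0907, 0.175, 0.0617 and 0.122). All 7 enterocyte markers were higher as well, with a median of 6.03, and their part was not tested. The count of 12 was 6 without any one array of these groups and 23 without either gallbladder tissue array.

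Liver organoids were also set against gallbladder organoids. Of the 32 genes 2 were higher and 1 lower in liver organoids, with a median of 0.30 against -0.05 over all genes, where 6.52% of all genes were called higher and 6.17% lower. Ech1, an isomerase that prepares unsaturated chains for oxidation, stood at 11.99 and 11.93 in the liver cultures against 10.89 and 10.92 in the gallbladder cultures, a difference of 1.06 ± 0.12 (limma adjusted p = 0.000456). Acaa2 read 12.17 and 12.14 against 11.10 and 11.01, a difference of 1.10 ± 0.24 (adjusted p = 0.016), and Crot 10.79 and 10.89 against 11.80 and 11.77, a difference of -0.94 ± 0.23 (adjusted p = 0.0256). Acaa2 and Crot lost their calls without any of the 4 arrays compared, with p up to 0.111 and 0.131, which left 1 call, 9 were made without either gallbladder tissue array, and 5 without any one of the liver tissue or small intestine tissue arrays. A fit of the 4 arrays alone called 20 genes, a fit with array weights 16, and quantile normalisation 4 higher and 1 lower. The shares of all genes called in these fits are not given here.

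Differentiated gallbladder organoids were set against undifferentiated ones. Ech1 was the one gene called, higher after differentiation, at 11.73 and 11.71 against 10.89 and 10.92, a difference of 0.81 ± 0.12 (limma adjusted p = 0.00332), and no gene was called lower. Over all genes 2.8% were called higher and 1.93% lower, and the median was 0.15 for the 32 genes and -0.04 for all. The arrays of the 2 groups did not overlap for 27 of the 32 genes, as for 66.6% of all genes. Of the 26 such genes that were not called 17 were higher and 9 lower. The peroxisomal Pex11a was among the lower ones, at 8.75 and 8.69 against 9.31 and 9.20 (adjusted p = 0.547), as was Acadl, at 10.24 and 10.27 against 10.73 and 10.57 (adjusted p = 0.345). Among the higher ones Bdh1 read 9.90 and 9.85 against 8.81 and 8.85, a difference of 1.05 (adjusted p = 0.168), Acox2 10.04 and 10.19 against 9.12 and 9.10, a difference of 1.00 (adjusted p = 0.483), Acaa2 11.93 and 11.87 against 11.10 and 11.01, a difference of 0.85 (adjusted p = 0.0904), and Crat 10.61 and 10.54 against 10.01 and 9.96, a difference of 0.59 (adjusted p = 0.0586). Replicates within both groups lay within 0.18 and 0.46 log2 units of each other for each of the 32 genes, while the fitted errors pool all 7 groups. In a fit of these 4 arrays alone 12 genes were called higher and 4 lower, with Bdh1, Acox2, Acaa2 and Crat among those higher, and with array weights 11 and 3. The shares of all genes called in these 2 fits are not given here. Without either gallbladder tissue array 5 genes were called, and without either small intestine tissue array 2.

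**Figure D5:**
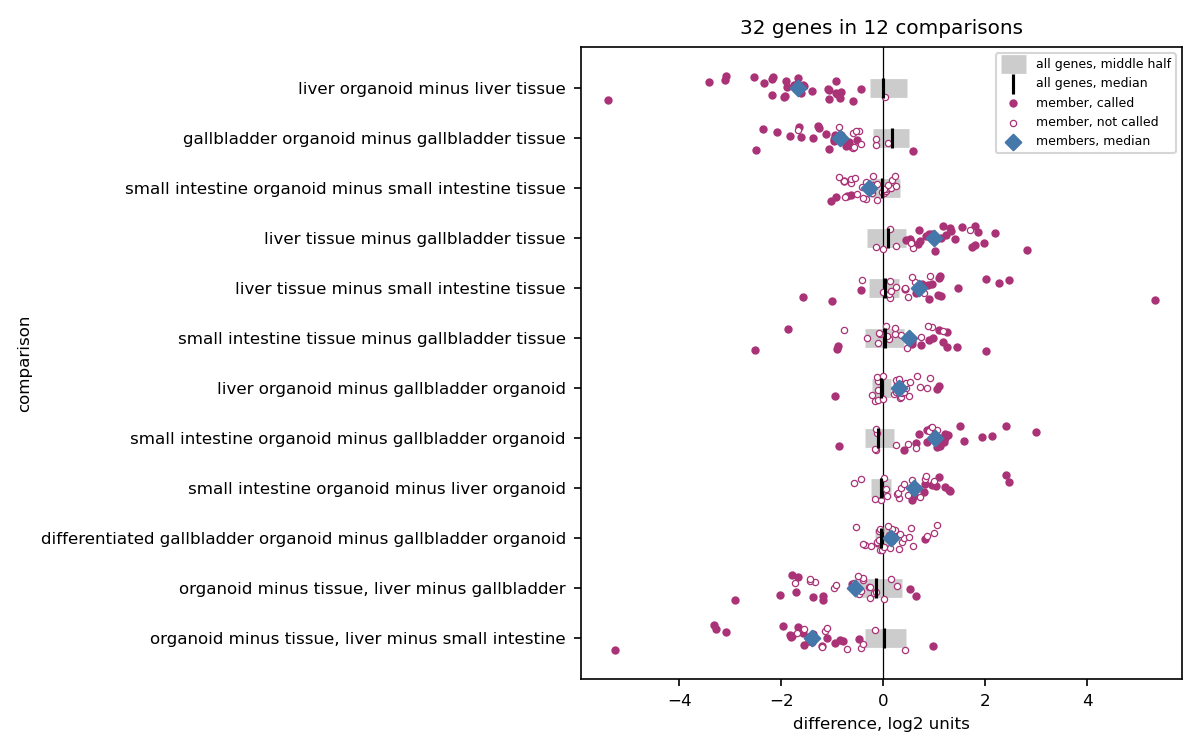
Differences of the 32 genes (purple points; filled, called) in the 12 comparisons, with their median (blue diamond) and the median and middle 50% of all 19938 genes (black tick and grey bar), in log2 units. The members' median was lowest in liver organoid minus liver tissue, at -1.67, and highest in small intestine organoid minus gallbladder organoid, at 1.01.

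Other genes of fatty acid handling were read from a list of 55, of which 48 were measured. In liver organoids 33 of the 48 fell and 5 rose, beside 18.2% and 26.7% of all genes, with a median of -1.34. The 4 with the largest limma differences were Slc27a2, a transporter that also activates very long chains, at -7.26 (adjusted p = 1.12e-05), Slc27a5, a synthetase that acts on bile acids, at -6.88 (4.53e-05), Acot12, an acetyl-CoA hydrolase, at -6.09 (8.95e-05), and Abcd2, a transporter of the peroxisome membrane, at -5.11 (2.28e-08). Slc27a2 read 13.48 and 13.23 in liver tissue. Organoids of the liver had 6.11 and 6.08 of it and those of the small intestine 12.24 and 12.19. In gallbladder organoids 21 of the 48 fell and 6 rose, beside 15.2% and 32.7% of all genes, with a median of -0.63. The largest limma differences were in Slc27a2 (-6.14, adjusted p = 5.53e-05), the medium-chain synthetase Acsm3 (-4.59, 9.8e-05), Slc27a5 (-4.15, 0.00166) and Acot12 (-3.62, 0.0032). Against gallbladder tissue replicate 1 alone and replicate 2 alone these were -4.89 and -7.39 for Slc27a2, -3.68 and -5.51 for Acsm3, -2.48 and -5.83 for Slc27a5, and -1.95 and -5.29 for Acot12. In small intestine organoids 10 of the 48 fell and 13 rose, beside 15.6% and 20.2% of all genes, with a median of -0.01, and Acot12 fell by 5.37 (adjusted p = 0.00035), Eci3 fell by 2.91 (0.000585) and the fatty acid transporter Slc27a4 fell by 2.65 (2.8e-07), while Acot1, a cytosolic thioesterase, rose by 2.28 (adjusted p = 2.1e-05). Oxct1, which lets extrahepatic cells use ketone bodies and had one of the 4 largest interaction terms between liver and gallbladder, read 6.83 and 7.65 in liver tissue and 10.19 and 10.31 in liver organoids, and rose by 3.01 (adjusted p = 2.26e-05).

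Of 16 measured regulators 11 fell and 4 rose in liver organoids, beside 18.2% and 26.7% of all genes. The related receptor genes Pparg and Ppard were among those that rose. Pparg read 9.55 and 9.30 in liver tissue and 12.03 and 11.93 in liver organoids and rose by 2.55 (limma adjusted p = 0.000198), and Ppard rose by 1.63 (1.73e-05). Ppara, the gene of PPARα, read 11.55 and 11.80 in liver tissue. Its organoid signals were 7.38 and 7.75 (liver), 7.25 and 7.32 (gallbladder) and 10.19 and 10.45 (small intestine). It fell by 4.11 in liver organoids (limma adjusted p = 0.000276) and fell by 2.85 in gallbladder organoids (0.00344), and differed by -0.69 in the small intestine (0.439). In gallbladder tissue Ppara read 8.86 and 11.41, so the difference was -1.58 against replicate 1 alone and -4.13 against replicate 2 alone. Creb3l3, a liver and intestinal transcription factor that works with PPARα, fell by 4.18 in liver organoids (adjusted p = 0.00024) and the coactivator Ppargc1a by 3.09 (1e-06). Ppargc1a also fell in the small intestine, by 2.19 (2.24e-05). Lpin1 fell by 2.83 in liver organoids (0.00577). Of 20 PPARα target genes outside the 32, of which Acot1 and Acot3 are also in the list of 48, 9 fell and 3 rose in liver organoids, with a median of -0.71, and the largest was Fabp1, a fatty acid binding protein, at 13.67 and 13.61 in liver tissue and 5.33 and 5.48 in organoids. In small intestine organoids Fabp1 read 12.67 and 13.02.

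Neighbouring mitochondrial and peroxisomal genes were read from 3 further lists. Of all genes 18.2% were called lower and 26.7% higher in liver organoids against tissue. The shares were 15.2% and 32.7% in gallbladder organoids and 15.6% and 20.2% in small intestine organoids. Of 30 respiratory chain genes 28 fell in liver organoids, with a median of -0.87, 7 fell and 1 rose in gallbladder organoids (-0.11), and 10 fell in small intestine organoids (-0.34). Of 12 citrate cycle genes 9 fell and 1 rose in liver organoids (-0.64), 6 fell and 1 rose in gallbladder organoids (-0.32), and 5 fell and 1 rose in small intestine organoids (-0.23). Of 12 peroxisome biogenesis genes, 3 of them (Pex5, Pex7 and Pex19) also in the list of 48, 10 fell in liver organoids (-0.87), none fell and 3 rose in gallbladder organoids (-0.01), and 1 fell and 2 rose in the small intestine (0.02). Beside these medians the 32 oxidation genes had -1.67, -0.85 and -0.28, and the difference between the lists was not tested. Between small intestine and gallbladder organoids 18 of the 30 respiratory chain genes and 10 of the 12 citrate cycle genes were higher, with medians of 0.57 and 0.82. Of all genes 15.4% were called higher there.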

How the data were processed

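The deposited values are log2 signals for 35556 probe sets on 14 Affymetrix arrays, made with RMA per the submitters' processing notes, with no version given in the sources used here. RMA in its usual form brings arrays to a common distribution, which removes a change shared by most genes, and array signals compress large differences. Probe sets were named through the platform annotation: 21789 had 1 symbol, 1621 several and 12146 none, and the single-symbol set with the highest mean was kept for each of 19938 genes.

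All 14 arrays were fitted with 1 mean per group in limma 3.58.1 (R 4.3.3), with eBayes, 7 residual degrees of freedom per gene (9.91 in all after moderation), and 2-sided p-values adjusted by Benjamini-Hochberg over all genes; "called" means an adjusted p below 0.05. The fit was tested on simulated data with 50 planted changes of each size. For liver organoid against tissue it called 1 of 50 changes of 0.5 log2 units, 25 of 50 of 1 unit and 50 of 50 of 2 units. For differentiated against undifferentiated gallbladder organoids these were 0, 25 and 50. A gene not called may thus still differ by 1 unit or less. With 2 arrays a group, an exact permutation of 1 gene cannot go below p = 0.333. Precision is limited by how few arrays there are.

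The members and all lists were chosen with earlier results of these data known. The rule for names was: in each comparison the called members with the 8 largest differences, in interaction terms the 4 largest, every member of a counted role of 3 or fewer, and the 4 largest called genes of the other pathway list, given here for the 3 comparisons of organoid with tissue. Group levels of all members are summarised by their highest and lowest group. Genes named beyond this were chosen after their values were seen. Alternatives were a minimum difference of 1, another quantile normalisation, median centring, leaving out the dimmest 40% of genes, averaging probe sets, fitting only the arrays compared, array weights, an intensity trend with robust moderation, a replicate block and leaving out each array. Promoter windows are from RefSeq (GRCm38.p6). Acsl1 was not analysed here.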

Additional observations from a re-analysis of the deposited data

Results flagged for a closer look

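The change from tissue to organoid differed between organs by the interaction test of the limma model, on the log2 scale. A negative term means a more negative difference in liver. Between liver and small intestine the term was called negative for 21 members and positive for 1, beside 16.2% and 19% of all genes. Bdh1 had -3.32, Acaa1b -3.28 and Ehhadh -3.08. Acsm1 had -5.27, but its signals were already low in small intestine tissue and in all organoids (5.85 to 6.21), so this term largely restates its fall in liver. Between liver and gallbladder the term was called negative for 10 members and positive for 2, beside 22.7% and 17.1% of all genes. The members' share called negative there was not far above that of all genes, and their median equalled the lower quartile of all genes, -0.56. Acadvl had -2.03, Bdh1 -1.79 and Acads -1.72, and Acsm1, as low in the organoids of both organs, had -2.91. Acaa1b and, against gallbladder, Acsm1 and Bdh1 lost these calls without single arrays. Both terms use the same liver arrays and are not independent of each other.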

How the results depend on the processing

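All 189 called differences of single members kept their sign under the 23 alternatives, except that Acsm1 has no value with the dimmest 40% of genes left out; the call was lost in 483 of the alternative values and kept in 3857. The share of all genes called moved with the setting too. For liver against gallbladder tissue it was 48.1% in the main fit and 19.2% with only the arrays compared. The counts of called members moved by over 1.5 times as follows, and the cause was not tested beyond the smaller number of arrays in a fit. With a minimum difference of 1 log2 unit, 11 members were called for gallbladder organoid against tissue, 1 for small intestine organoid against tissue, 15 for liver against gallbladder tissue, 10 for liver against small intestine tissue, 8 for small intestine against gallbladder tissue, 7 for small intestine against liver organoids and 0 for differentiated against undifferentiated gallbladder organoids; for that count of 0, limma without the minimum called 1, and 5 members had an unadjusted p under 0.05. Fitting only the arrays compared, which leaves 2 to 4 residual degrees of freedom, gave 9 for small intestine organoid against tissue, 4 for liver and 3 for small intestine against gallbladder tissue, 20 for liver and 16 for differentiated against gallbladder organoids, 26 for small intestine against liver organoids and 5 for the liver and gallbladder interaction. Array weights gave 16, 21 and 14 for liver against gallbladder, small intestine against liver and differentiated against undifferentiated organoids. Quantile normalisation gave 5 for liver against gallbladder organoids, and leaving out dim genes gave 5 there and 2 for differentiation. Centring on the array median moved the median of all genes from 0.09 to 0.21 for liver against gallbladder tissue and from -0.14 to -0.26 for their interaction.

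Leaving out single arrays gave counts of 2 to 12 for small intestine organoid against tissue, 7 to 24 for liver against small intestine tissue, 12 to 26 for small intestine against gallbladder tissue, 1 to 9 for liver against gallbladder organoids, 14 to 26 and 6 to 23 for small intestine against gallbladder and liver organoids, 1 to 5 for differentiation, and 4 to 23 and 14 to 28 for the interactions with gallbladder and small intestine. Samples with the same replicate number shared little deviation from their group means (correlations of -0.1 to 0.14 over 21 pairs of groups, 2 above 0.1). This cannot exclude that such samples are paired, because each group gives only 1 difference between its 2 arrays. With the replicate number as a block 31 members were called for liver organoid against tissue, 21 for gallbladder, 4 for small intestine and 14 and 20 for the interactions.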
